A study of Mus musculus with 52 samples.

Results

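The 6 genes described here, Tdh, Gcat, Gldc, Amt, Gcsh and Shmt1, encode enzymes that make glycine or break it down. They were picked by name from 55291 genes of a count table of mouse stem cells and embryo-like aggregates. Their levels in all 52 libraries, in CPM (counts scaled to library size by the TMM method), were known when they were chosen. Their levels, differences and calls are therefore a description and carry no p-value. Tests are given only for 65 other genes of glycine, serine and one-carbon metabolism. Their lists were also drawn up with earlier results of these data known, so p-values and counts for them are no independent test.

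Poly(A) RNA was counted in 25 groups labelled wild type, with n = 2 libraries each except 4 for extended pluripotent stem cells (EPSCs). EPSCs of the line mc6-1/Mu-mClover3-10# were kept in LCDM medium, and embryonic stem cells (mESCs) of the line 2i-0606-td-ES in 2i/L medium. S1 cells were EPSCs given a totipotency medium for 2 days, P25 and P38 were EPSCs held in it over 25 or 38 passages, and mESC-S1 were mESCs given it for 2 days. The CHIR groups were EPSCs grown for 2 days with CHIR-99021, which inhibits GSK3. Some of these also got Elvitegravir (an HIV integrase inhibitor), PD0325901 (which blocks MEK) or CD1530 (which activates RAR gamma, a receptor for retinoic acid). S2 were aggregates of S1 cells after 1 day in a medium named 4C-64C, and S3 were S2 aggregates after 1 more day. At both stages further groups lacked 8Br-cAMP (a cAMP analog), Birabresib (a BET inhibitor), CD1530 or CHIR. S5 were day 1 S4 structures kept for 3 days in a peri-implantation medium on Aggrewell plates, whole or without Activin A, BMP4, FGF4 or XAV939 (a tankyrase inhibitor). Each treatment rests on 1 line, every group but mESC and mESC-S1 on the EPSC line, and S4 was not analysed here. The labels leave unsaid whether a group's libraries stem from separate cultures, so p-values measure only the spread between these libraries, which may be technical.

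Total counts per library ran from 16643188 to 108304781. They came as a first set of 12 (EPSC libraries 1 and 2, S1 and the CHIR groups) and a second of 40. EPSC libraries 1 and 2 served as reference for the first set and EPSC libraries 3 and 4 for mESC and P25. Among low counts 66.8 to 80.5% were even numbers in 46 libraries and 40.7 to 42% in the other 6 (EPSC 3 and 4, P25 and P38), so read pairs may have been counted in different ways. For every gene, mESCs against EPSC libraries 3 and 4 and S2 against P25 and P38 cross these 2 kinds of library. Of 7 pluripotency markers, Sox2 was listed at 0 in all libraries of the first set, so it gives no check of their label. Marker sums of the first set thus lack Sox2 and are not like those of the second set. The summed level of the 7 markers was 2210 to 2290 CPM in EPSC libraries 1 and 2, 4520 to 4620 CPM in EPSC libraries 3 and 4, and 4240 to 4410 CPM in mESCs. Markers of fibroblast feeders summed to 241 to 270, 653 to 665 and 1990 to 2080 CPM in the same order, with none of the 7 at 0.

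Threonine dehydrogenase (Tdh) oxidises threonine in mitochondria, and the product is split by Gcat into glycine and acetyl-CoA. The glycine cleavage system then takes glycine apart and hands a one-carbon unit to folate: Gldc removes carbon dioxide, Gcsh carries the remaining aminomethyl group, Amt passes it to tetrahydrofolate, and Dld restores the carrier. Shmt1 and its mitochondrial counterpart Shmt2 convert serine and glycine into each other and also load folate. Mouse embryonic stem cells are known for high Tdh and for needing threonine, while folate units feed purine and thymidine synthesis.

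By the GENCODE M21 annotation of mm10, Tdh lies on the minus strand at chr14:63492347-63509092 and Gcat on the plus strand at chr15:79030874-79038353. Gldc lies on the minus strand at chr19:30098447-30175429, Amt on the plus strand at chr9:108296853-108302302, and Gcsh on the minus strand at chr8:116981810-116993537. Shmt1 lies on the minus strand at chr11:60788104-60811718. All are protein-coding, and values are summed over the exons of each gene. Exonic overlap with other genes was 0.0% for Gldc, Amt and Gcsh, 2.5% for Tdh (the antisense Gm17232) and 4.7% for Shmt1 (Smcr8, on the other strand). No source used here says whether counting used strand, so reads of those overlaps cannot be told apart. For Gcat the overlap was 47.5%, because the annotation holds 2 entries of that name on the same strand.

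Gldc and Amt act in the same enzyme complex, yet their levels went apart across the groups, so the sequence before their start sites is printed. Sequences are from RefSeq on GRCm38.p6, 5′ to 3′ on the gene's strand, up to the start site. The Gldc stretch is chr19:30175442-30175691 on the minus strand and the Amt stretch chr9:108296655-108296852 on the plus strand. Capitals mark any of 5 motifs read on both strands. These are the nuclear receptor half-site AGGTCA, the box with the letters CCAAT, the GC box with the letters GGGCGG, the octamer ATGCAAAT and the box with the letters TATAAA.
Gldc: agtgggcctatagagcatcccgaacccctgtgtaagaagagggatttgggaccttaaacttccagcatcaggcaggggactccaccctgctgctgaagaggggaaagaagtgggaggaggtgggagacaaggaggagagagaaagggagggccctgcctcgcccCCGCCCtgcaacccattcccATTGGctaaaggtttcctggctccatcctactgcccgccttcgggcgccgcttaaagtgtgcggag
Amt: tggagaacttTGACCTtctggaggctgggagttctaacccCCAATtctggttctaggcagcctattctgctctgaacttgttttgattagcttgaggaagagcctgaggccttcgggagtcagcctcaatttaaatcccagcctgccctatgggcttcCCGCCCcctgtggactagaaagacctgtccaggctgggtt
Both stretches held 1 box of the letters CCAAT and 1 GC box, and Amt also held 1 half-site. Over the 250 bases before the start of 32851 RefSeq promoters, 14.0% held the half-site, 33.8% the letters CCAAT, 32.7% the GC box, 1.6% the octamer and 12.4% the letters TATAAA. Of the 6 genes 5 had a RefSeq promoter entry, Tdh not among them. Over 250 bases, the GC box was in all 5, the letters CCAAT in 4 (not Gcat) and the half-site in Amt only. A match is only a string of letters and is no evidence of binding.

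Tdh spanned the widest range of the 6, from 0.929 CPM in an S1 library to 679 CPM in an EPSC library, a 731-fold span. Its order of group means was led by EPSC libraries 3 and 4 with 664 ± 22 CPM (SD, n = 2), then mESCs with 488 ± 21 CPM. S2 and S3 aggregates without CD1530 followed with 348 ± 15 and 338 ± 18 CPM, whose libraries overlapped, and then EPSC libraries 1 and 2 with 313 ± 12 CPM. S1 was the lowest group at 0.954 ± 0.034 CPM, and the 20 others had means between 15.1 and 109 CPM. Libraries of neighbours in this order overlapped in 10 of 25 pairs.

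**Figure D1:**
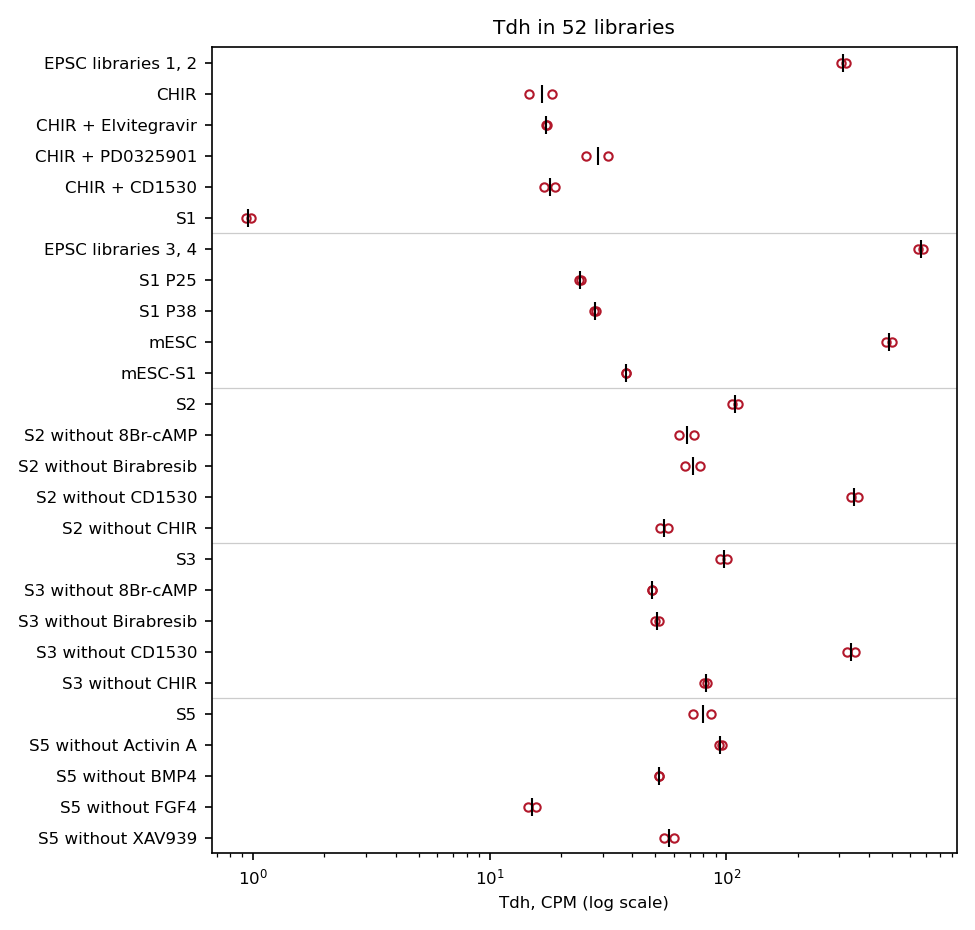
Tdh in each of the 52 libraries (circles, CPM on a log scale) with the group mean (black bar), by group; EPSC libraries 1 and 2 belong to the first set and 3 and 4 to the second. S1 lies lowest at a mean of 0.954 CPM, and the 2 groups without CD1530, at 348 and 338 CPM, lie with the pluripotent cells.

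The other 5 genes varied less. Gldc ran from 29.1 to 521 CPM (17.9-fold), Gcat from 10 to 172 CPM (17.2-fold), Amt from 31.7 to 225 CPM (7.09-fold), Shmt1 from 44.6 to 228 CPM (5.11-fold) and Gcsh from 44.4 to 174 CPM (3.92-fold). Divided by exon length, the median over the 52 libraries was 21.2 CPM per kb for Tdh, 26.4 for Gcat, 29 for Shmt1, 35.4 for Amt, 36.4 for Gldc and 49.6 for Gcsh. In EPSC libraries 3 and 4 the order per kb was different, with Tdh at 254 and Gldc at 73.2 CPM per kb against 43.6 for Amt and 49.2 for Gcsh. The genes also peaked in different groups: Gldc in EPSC libraries 1 and 2 (477 ± 6.2 CPM) and S5 (475 ± 65 CPM), Amt and Gcsh in mESCs (224 ± 0.62 and 168 ± 9.8 CPM), and Shmt1 in EPSC libraries 1 and 2 (228 ± 0.4 CPM). Libraries of neighbouring groups overlapped in 11 of 25 pairs for Gldc, 15 for Gcat, 16 for Shmt1 and 18 for both Amt and Gcsh.

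Gcat needs a caution. It was at 10 to 27.1 CPM in the 6 libraries without mostly even counts and at 35.6 to 172 CPM in the 46 others, with no overlap. In EPSC libraries 1 and 2 it was 172 and 164 CPM, and in EPSC libraries 3 and 4 it was 27.1 and 26.6 CPM, although both pairs carry the same label. Of 12 further protein-coding symbols that the annotation gives 2 overlapping entries, at 10 CPM or more, 4 (Fam220a, Ndor1, Nnt and Ptp4a1) were also at most 50% of their level in EPSC 1 and 2 and in mESCs, against 3.19% of 12284 genes. Others of the 12 were higher in EPSC 3 and 4 than in EPSC 1 and 2, among them Atp5o (105 against 4.65 CPM), Zc3h11a (20.4 against 0.0116 CPM) and Myl12b (6.56 against 0.158 CPM). The cause was not tested. Differences in Gcat across the 2 kinds of library cannot be told apart from a difference in counting.

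**Figure D2:**
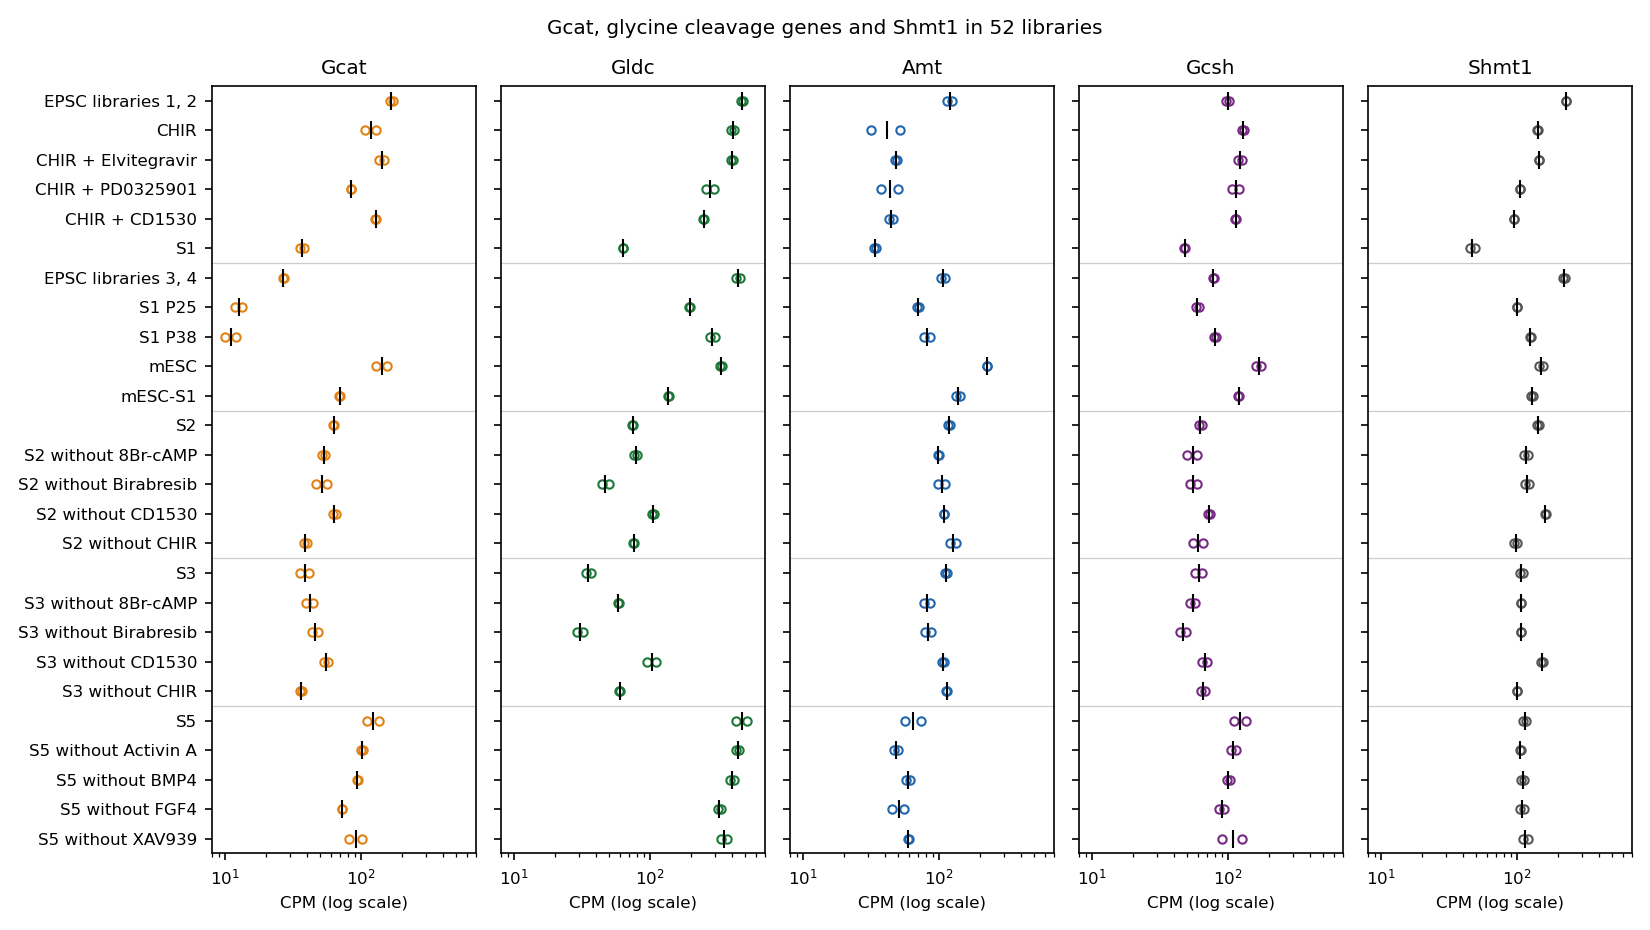
Gcat, Gldc, Amt, Gcsh and Shmt1 in each of the 52 libraries (circles, CPM on a log scale) with the group mean (black bar), groups ordered as for Tdh. Gldc is high in pluripotent cells and S5 (mean 475 CPM) and low in S3 (mean 35.3 CPM), Amt is higher in S2 and S3 than in S5, and Gcat is lowest in the 6 libraries of EPSC 3 and 4, P25 and P38.

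After 2 days of totipotency medium, EPSCs had less of all 6 transcripts. Tdh was at 321 and 304 CPM in the EPSC libraries and at 0.978 and 0.929 CPM in S1, a log2 fold change of -8.35 ± 0.14 (SE), or 326-fold lower. Gldc was at 481 and 472 CPM before and 63.1 and 63.8 CPM after (-2.91 ± 0.09). No library of one group reached into the other for either gene. Shmt1 (-2.28 ± 0.07), Gcat (-2.19 ± 0.11), Amt (-1.82 ± 0.14) and Gcsh (-1.05 ± 0.11) were lower by 2.08-fold to 4.87-fold, also without overlap. The call rule asked for a log2 fold change of at least 1 in size and, in edgeR's quasi-likelihood test, an adjusted p below 0.05. By that rule all 6 were called lower, while 9.16% of 25056 tested genes were called lower. Since these levels chose the genes, nothing is read from that count. With all 4 EPSC libraries as reference Gcsh was at -0.89 and not called. The median of the 6 was -2.24 and that of all genes 0. In bulk RNA, fewer cells with a transcript and less of it per cell cannot be told apart. The pluripotency markers moved with these genes: their sum was 302 to 319 CPM in S1, Pou5f1 went from 274 ± 5.1 to 10.5 ± 0.23 CPM (SD, n = 2), and the 2-cell markers went from 0 for all 6 to a sum of 1270 to 1380 CPM. Trophectoderm markers went from a sum of 21.4 to 22.6 CPM to 1030 to 1350 CPM. Their part in the result was not tested.

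CHIR alone, compared with the same EPSC libraries as S1, gave low Tdh but not low Gldc. Tdh was at 14.7 and 18.4 CPM (-4.25 ± 0.11), and Amt at 51.7 and 31.7 CPM against 115 and 124 CPM (-1.51 ± 0.14), where the CHIR libraries lay far apart. Gldc stayed at 398 and 415 CPM (-0.23 ± 0.09) and Gcsh at 126 and 132 CPM (0.38 ± 0.11). Tdh and Amt were called lower, with 6.99% of all genes called lower. The pluripotency markers summed to 185 to 213 CPM in CHIR, and Pou5f1 was at 51.6 ± 18 CPM (SD, n = 2). Endoderm markers summed to 296 to 300 CPM against 11.1 to 11.9 CPM in EPSCs, and trophectoderm markers to 69.7 to 87.9 CPM. Their part was not tested.

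With a further agent beside CHIR none of the 6 was called. Over all genes the share called was 0.00798% for Elvitegravir, 4.51% for PD0325901 and 16.7% for CD1530. These comparisons share the CHIR libraries. With PD0325901 Tdh was at 25.6 and 31.7 CPM (0.79 ± 0.1), above both CHIR libraries, and Gldc at 258 and 296 CPM (-0.55 ± 0.09). Libraries of these 2 groups differed most from each other. Pluripotency markers summed to 391 to 470 CPM with PD0325901 against 185 to 213 CPM in CHIR, and endoderm markers to 11.5 to 14 against 296 to 300 CPM. Trophectoderm markers summed to 214 to 221 against 69.7 to 87.9 CPM. The part of these markers was not tested. With CD1530 Gldc was at 251 and 247 CPM (-0.71 ± 0.09) and Shmt1 at 94 and 95.5 CPM (-0.58 ± 0.07), while Tdh was at 18.8 and 17 CPM, overlapping with CHIR. Endoderm markers summed to 2670 to 2720 CPM with CD1530, and their part was not tested. For Tdh, Gcat and Gldc the full medium went further than the sum of the separate additions on the log2 scale. Against that sum S1 had lower Tdh by a log2 difference of -5.08 ± 0.23, Gcat of -1.59 ± 0.22 and Gldc of -1.41 ± 0.17, all called, with 4.07% of all genes called lower. Amt (-0.65 ± 0.28), Gcsh (-0.97 ± 0.23) and Shmt1 (-0.62 ± 0.14) were not called. Without CHIR library 1 Amt came to -1.52 and was called. Gcsh was called in 4 alternatives: -1.01 in the first set alone and without CHIR library 2, -1.04 without Elvitegravir library 2, and -1.06 without PD0325901 library 1.

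mESCs given the totipotency medium had lower Tdh too, but the other genes moved less. Tdh was at 503 and 473 CPM in mESCs and 37.6 in both mESC-S1 libraries (-3.7 ± 0.11). Gldc went from 337 and 330 CPM to 135 and 138 CPM (-1.29 ± 0.09). Gcat was lower by -1.04 ± 0.11, a call lost at -0.89 without mESC library 1. Amt (-0.7 ± 0.14), Gcsh (-0.48 ± 0.11) and Shmt1 (-0.21 ± 0.07) were not called, and 8.26% of all genes were called lower. Pluripotency markers summed to 2550 to 2560 CPM and 2-cell markers to 129 to 136 CPM in mESC-S1. Mean Pou5f1 was at 255 CPM in mESC-S1 against 629 CPM in mESCs, while mean Nanog was at 738 against 539 CPM. Feeder markers went from 1990 to 2080 CPM down to 966 to 967 CPM and trophectoderm markers from 18.4 to 18.8 CPM up to 62.9 to 63 CPM. The part of these markers in the difference was not tested.

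After 25 passages in the medium, Tdh was again low. It was at 679 and 648 CPM in EPSC libraries 3 and 4 and at 23.9 and 24.2 CPM in P25 (-4.79 ± 0.12, 27.6-fold). Gldc (-1.19 ± 0.09), Shmt1 (-1.14 ± 0.07) and Gcat (-1.09 ± 0.13) were also called lower, with 5.5% of all genes called lower. Amt (-0.61 ± 0.14) and Gcsh (-0.38 ± 0.12) were not. From P25 to P38 none of the 6 was called, with 0.339% of all genes called; Gldc went from 197 and 195 CPM to 299 and 276 CPM (0.55 ± 0.09), without overlap. The pluripotency markers summed to 1990 to 2000 CPM in P25 and 2470 to 2700 CPM in P38. Mean Pou5f1 was at 334 CPM in P25 against 888 CPM in EPSC libraries 3 and 4, while mean Nanog was at 492 against 416 CPM. Feeder markers summed to 1270 to 1300 CPM in P25, above the 653 to 665 CPM of its EPSC libraries. Trophectoderm markers were at 847 to 884 against 36.8 to 41.7 CPM and 2-cell markers at 204 to 211 against 0.103 to 0.153 CPM. The part of these markers in the result was not tested.

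The 3 responses to the medium differed in size, in contrasts that share the S1 and EPSC 1 and 2 libraries. The log2 response of Tdh was smaller in mESCs than in EPSCs by 4.65 ± 0.16 and smaller at P25 than at 2 days by 3.56 ± 0.16. For Shmt1 these differences were 2.07 ± 0.1 and 1.14 ± 0.1, and for Gldc 1.62 ± 0.12 and 1.72 ± 0.12. In each contrast 5 of the 6 were called, all but Gcsh (0.57 ± 0.16 and 0.67 ± 0.16), with 8.7% and 4.76% of all genes called in that direction. Both contrasts set libraries of the second set against those of the first. EPSCs of the same label had Tdh at 313 CPM in the first set and 664 CPM in the second. The set differs along with line and starting medium for mESCs, or with time in the medium for P25. These cannot be told apart. With all 4 EPSC libraries as reference Gcat came to 0.37 in the mESC contrast and was not called. Untreated mESCs against EPSC libraries 3 and 4 had Amt at 224 and 225 against 110 and 103 CPM (1.08 ± 0.14) and Gcsh at 174 and 161 against 77 and 78.4 CPM (1.11 ± 0.11). Both, and Gcat at 2.42 ± 0.12, were called higher, with 9.66% of all genes called higher. Each was compared across the 2 kinds of library. The line and the medium differ along with the cell type, and none of these can be told apart. With all 4 EPSC libraries as reference these 3 were at 0.99, 0.92 and 0.55 and not called.

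**Figure D3:**
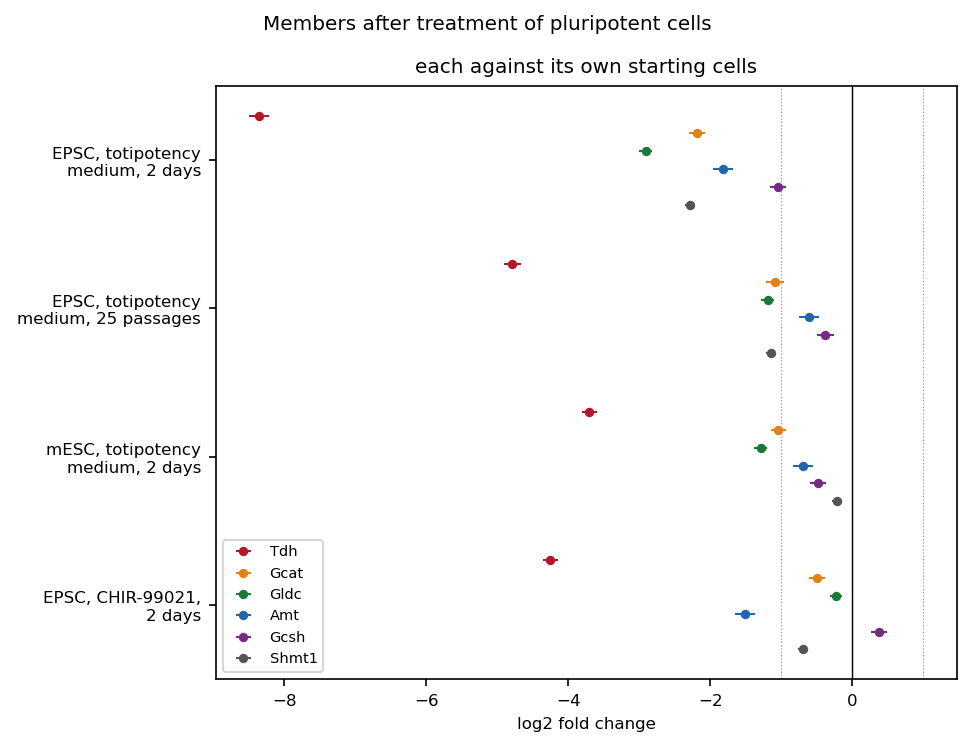
Log2 fold change (points) with its SE (bars) of the 6 genes after each treatment against its own starting cells; dotted lines mark a log2 fold change of 1 in size. Tdh lies leftmost in all 4, from -3.7 in mESCs to -8.35 in EPSCs at 2 days, and Gldc and Gcsh lie near 0 after CHIR alone.

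From the long-term S1 cells to aggregates Tdh and Gldc went opposite ways. The labels do not say which S1 cells the aggregates came from, and S2 was set against the mean of P25 and P38, of its own set. Tdh was at 112 and 106 CPM in S2 against 23.9 to 28.1 CPM (2.08 ± 0.08), and Gldc at 75.2 and 74.1 CPM against 195 to 299 CPM (-1.67 ± 0.08). Gcat was at 2.42 ± 0.1, Amt at 0.65 ± 0.12, Shmt1 at 0.35 ± 0.06 and Gcsh at -0.14 ± 0.1. All of these, Tdh and Gldc included, were compared across the 2 kinds of library. A difference in counting cannot be told apart. Tdh and Gcat were called higher, as were 5.89% of all genes, and Gldc was called lower, as were 11.6%. Against the 2-day S1 libraries of the first set both genes were higher in S2, since those held 0.978 and 0.929 CPM of Tdh and 63.1 and 63.8 CPM of Gldc. The direction for Gldc thus holds only for the long-term reference. Feeder markers summed to 220 to 230 CPM in S2 against 417 to 1300 CPM in P25 and P38, trophectoderm markers to 267 to 280 against 532 to 884 CPM, and 2-cell markers to 66.3 to 76.6 against 153 to 211 CPM. Their part was not tested.

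Gldc went lower still on the second day in 4C-64C medium, to 33.9 and 36.7 CPM in S3 (-1.08 ± 0.09), and was the only 1 of the 6 called, with 3.37% of all genes called lower. Tdh was at 101 and 94.2 CPM (-0.16 ± 0.1) and Amt at 111 and 115 CPM (-0.07 ± 0.14). Endoderm markers summed to 126 to 133 CPM in S3 against 41.4 to 44.9 CPM in S2, and trophectoderm markers to 428 to 456 against 267 to 280 CPM. 2-cell markers summed to 8.53 to 9.03 against 66.3 to 76.6 CPM, and feeder markers to 142 to 154 against 220 to 230 CPM. The part of these markers was not tested.

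Between S3 and S5 Gldc moved back up to the level of pluripotent cells. It was at 428 and 521 CPM in S5 (3.75 ± 0.1, 13.4-fold above S3). Gcat was at 111 and 136 CPM against 41.2 and 35.8 CPM (1.68 ± 0.11), and Gcsh at 110 and 135 CPM against 57.5 and 64 CPM (1.01 ± 0.11). These 3 were called higher, as were 14.1% of all genes; the Gcsh call was lost without S3 library 1 (0.93) or S5 library 2 (0.85). Tdh was at 72.4 and 86.4 CPM (-0.29 ± 0.1), Shmt1 at 117 and 110 CPM (0.07 ± 0.07), and Amt at 56.1 and 73.4 CPM (-0.8 ± 0.14), called lower at -1.01 only without S5 library 2. Tdh thus stayed far below the 313 CPM or more of pluripotent cells while Gldc did not. Markers moved as well: pluripotency markers summed to 800 to 974 CPM in S5 against 2720 to 2740 CPM in S3, and endoderm markers to 2290 to 3120 CPM against 126 to 133 CPM, with Afp at 0 in S3. The pluripotency markers did not move together. Nanog was at 139 ± 4.6 against 410 ± 26 CPM (SD, n = 2), but Pou5f1 at 277 ± 21 against 246 ± 8.1 CPM. The part of all these markers in the differences was not tested.

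Leaving CD1530 out of the aggregate medium went with the highest Tdh of any aggregates. At S2 it was at 359 and 337 CPM against 112 and 106 CPM with CD1530 (1.67 ± 0.1), and at S3 at 325 and 351 CPM against 101 and 94.2 CPM (1.79 ± 0.1). Gldc was at 104 and 108 CPM against 75.2 and 74.1 CPM at S2 (0.51 ± 0.09) and at 95.7 and 111 CPM against 33.9 and 36.7 CPM at S3 (1.55 ± 0.09). The libraries did not overlap in any of these. Tdh was called higher at S2, where 0.718% of all genes were, and Tdh and Gldc at S3, where 1.97% were. Amt was not higher at either stage (-0.13 ± 0.14 and -0.08 ± 0.13), and Shmt1 was at 0.18 ± 0.07 and 0.49 ± 0.07. Pluripotency markers summed to 3100 to 3160 CPM without CD1530 at S2 against 2730 to 2740 CPM with it. Pou5f1 was at 399 ± 14 against 212 ± 6.3 CPM (SD, n = 2), while Nanog was at 475 ± 11 against 465 ± 20 CPM. Primitive streak markers summed to 85.6 to 87.5 against 31 to 33.6 CPM, trophectoderm markers to 421 to 454 against 267 to 280 CPM, and feeder markers to 174 to 214 against 220 to 230 CPM. At S3, without CD1530, pluripotency markers summed to 3000 against 2720 to 2740 CPM, trophectoderm markers to 821 to 842 against 428 to 456 CPM and primitive streak markers to 87.2 to 89.9 against 31.3 to 32.7 CPM. Feeder markers at S3 summed to 57.4 to 63.3 against 142 to 154 CPM. What these markers contribute was not tested.

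The other omissions at S2 and S3 went with lower Tdh. Without CHIR it was at 52.4 and 56.6 CPM at S2 (-1 ± 0.1) and at 82.8 and 80.6 CPM at S3 (-0.25 ± 0.1). Without 8Br-cAMP it was at 63.2 and 72.9 CPM at S2 (-0.68 ± 0.1) and 48.3 and 48.5 CPM at S3 (-1.01 ± 0.1). Without Birabresib it was at 67.1 and 77.6 CPM at S2 (-0.59 ± 0.1) and 50.1 and 51.9 CPM at S3 (-0.93 ± 0.1). No library of these 6 groups overlapped with its full medium for Tdh. Only the omission of CHIR at S2 (2.22% of all genes called lower) and that of 8Br-cAMP at S3 (3.8%) passed the call rule, both at its edge. The first was lost at -0.97 without S2 library 1 and at -0.96 without library 1 of the omission, and the second at -0.97 without S3 library 1. In the remaining omissions of these agents none of the 6 was called, where 1.92% (8Br-cAMP, S2), 2.98% and 6.21% (Birabresib, S2 and S3) and 9.16% (CHIR, S3) of all genes were. Gldc was higher at S3 without CHIR (60.7 and 59.6 CPM, 0.77 ± 0.09) and without 8Br-cAMP (58.6 and 58.8 CPM, 0.73 ± 0.09), and lower at S2 without Birabresib (44.3 and 49.6 CPM, -0.67 ± 0.09). All omissions of a stage share its full-medium libraries. Without 8Br-cAMP the pluripotency markers also summed lower, to 1850 to 2000 CPM at S2 and 1430 CPM at S3. Trophectoderm markers summed to 608 to 610 CPM at S2 and 1010 to 1020 CPM at S3 without CHIR, and to 319 to 374 and 875 to 876 CPM without Birabresib, against 267 to 280 and 428 to 456 CPM in full medium. They were lower without 8Br-cAMP, at 158 to 161 and 208 to 228 CPM. Endoderm markers summed to 518 to 535 CPM at S3 without CHIR against 126 to 133 CPM. The part of these markers was not tested.

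At S5 the omission of FGF4 stood apart for Tdh. Tdh was at 14.5 and 15.7 CPM against 72.4 and 86.4 CPM in full medium (-2.4 ± 0.1, 5.27-fold lower), the only 1 of the 6 called, with 2.53% of all genes called lower. Gcat (-0.76 ± 0.11), Gldc (-0.55 ± 0.09), Gcsh (-0.45 ± 0.11) and Amt (-0.36 ± 0.14) were lower without overlap, and Shmt1 overlapped (-0.07 ± 0.07). Falls without overlap were not particular to FGF4. They were also seen for Amt (-0.42 ± 0.14) and Gcat (-0.28 ± 0.11) without Activin A. Without BMP4 they were seen for Gcat (-0.39 ± 0.11), Gcsh (-0.28 ± 0.11) and Gldc (-0.24 ± 0.08), and without XAV939 for Gcat (-0.43 ± 0.11) and Gldc (-0.43 ± 0.09). Pluripotency markers summed to 793 to 803 CPM without FGF4 against 800 to 974 CPM with it, endoderm markers to 620 to 673 against 2290 to 3120 CPM, and trophectoderm markers to 222 to 223 against 503 to 567 CPM. Mean Pou5f1 (363 against 277 CPM) and Nanog (176 against 139 CPM) were higher without FGF4. The part of all these markers was not tested. Without Activin A (1.12% of all genes called), BMP4 (0.0559%) or XAV939 (2.14%) none of the 6 was called. Tdh was at 95.4 and 93 CPM without Activin A (0.25 ± 0.1), 52.1 in both libraries without BMP4 (-0.61 ± 0.1) and 60.2 and 54.3 CPM without XAV939 (-0.47 ± 0.1).

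**Figure D4:**
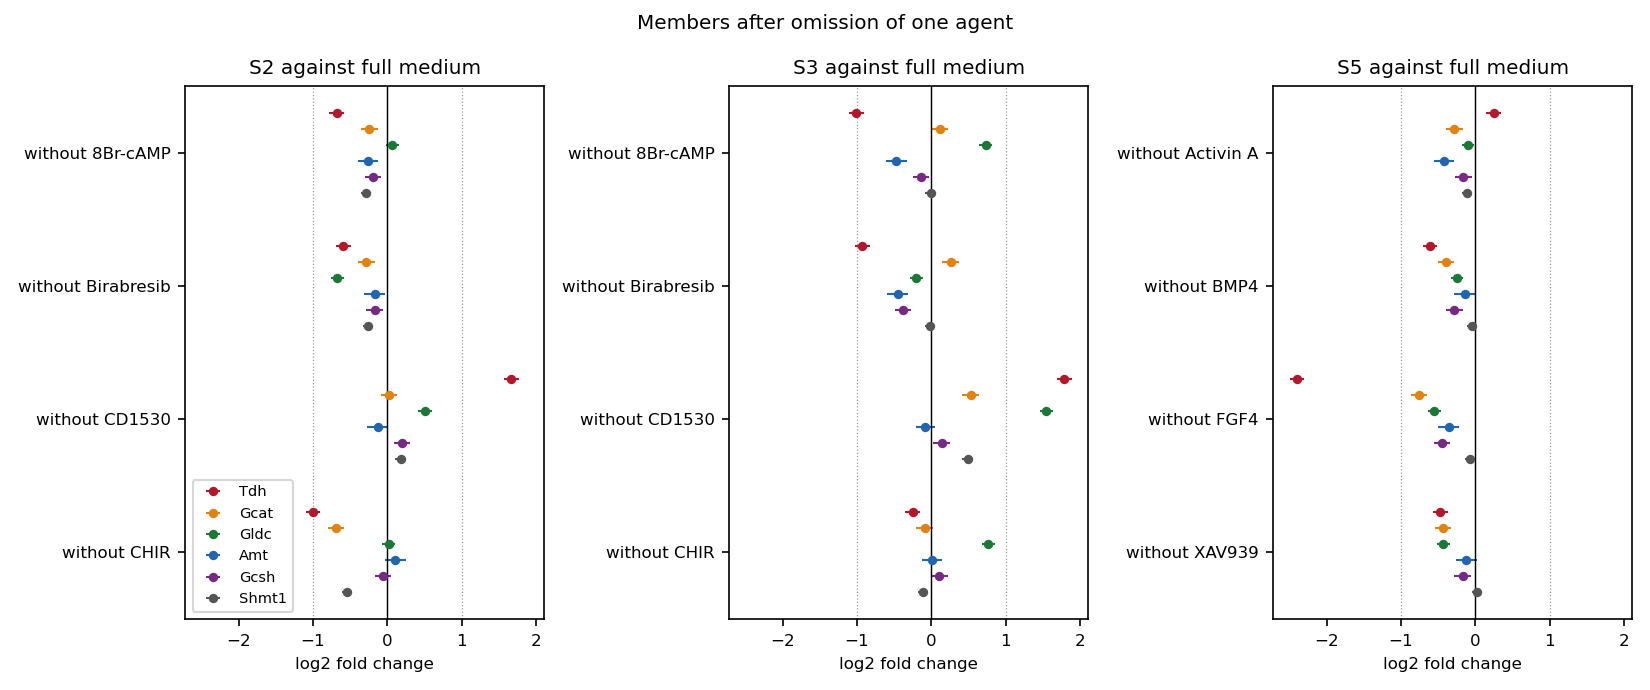
Log2 fold change (points) with its SE (bars) of the 6 genes when 1 agent was left out, against the full medium of the stage; dotted lines mark a log2 fold change of 1 in size. Tdh lies at 1.67 and 1.79 without CD1530 and at -2.4 without FGF4, and most other points lie between the dotted lines.

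The 6 genes did not share 1 pattern. Over 26 group means (EPSCs once per set) Pearson's r of log2 CPM was 0.82 for Gldc and Gcsh, 0.78 for Tdh and Shmt1 and 0.74 for Tdh and Amt. It was 0.12 for Tdh and Gcat, which catalyse consecutive steps, 0.07 for Tdh and Gldc, and -0.32 for Gldc and Amt. Over the 20 groups of the second set alone the same values were 0.78, 0.78, 0.54, 0.26, 0.07 and -0.39. Groups share a line, media and kinds of library, so these values are descriptions.

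Among tested genes the pattern most like that of Tdh was that of Triml1 (r = 0.93 over 26 groups, 0.92 over the 20 of the second set), then Hibadh (0.9 and 0.82), Cluh (0.89 and 0.78), Poldip2 (0.89 and 0.86) and Xab2 (0.87 and 0.79). Gldc was most like Wwc1 and Iars (both 0.94 over 26 groups), Amt like Itpka (0.94) and Atmin (0.92), and Gcsh like Rpl10 (0.93) and Gabpb2 (0.9). Shmt1 was most like Rcc2 (0.93) and Adh5 (0.91), and Gcat like Polr3d (0.89) and Elp3 (0.88). The values for Gcat span both kinds of library, so the caution on its counting holds here too.

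Partners outside the 6 were tested. Dld, shared with other mitochondrial complexes, had log2 fold changes from -0.47 to 0.58 over the 27 comparisons. Its level was 106 ± 1.8 CPM in S1 and 111 ± 7.5 CPM in EPSC libraries 1 and 2 (SD, n = 2; log2 fold change -0.08 ± 0.13 SE, adjusted p = 0.75 in edgeR's test). Shmt2 fell in S1 from 302 and 311 CPM to 70.4 and 67.2 CPM (-2.15 ± 0.12, adjusted p = 1.3e-17). It rose in S5 from 79.7 and 75 CPM in S3 to 231 and 224 CPM (1.55 ± 0.12, adjusted p = 1.6e-13). The Shmt2 response was smaller in mESCs than in EPSCs by 1.82 ± 0.17 (adjusted p = 2.6e-11) and smaller at P25 than at 2 days by 1.35 ± 0.17 (adjusted p = 7.7e-08). Here too the set of libraries cannot be told apart from the cell type or the time in the medium.

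Of the 65 genes in the lists, 62 were tested, Agxt, Agxt2 and Glyat having too few counts. As said at the start, the lists were chosen with earlier results of these data known. Gss, Slc6a9 and Alas2 were at 0.0814, 0.0222 and 0 CPM in EPSC libraries 1 and 2, against 46.3, 13.4 and 0.618 CPM in EPSC libraries 3 and 4. Lipt1 was at 0.519 against 6.31 CPM. These genes were as low in the other groups of the first set, so contrasts that use it hardly measure them, yet they count among the 62. In S1 against EPSCs 22 of the 62 fell and 8 rose, against 9.16% and 18.7% of all genes. The median log2 fold change of the 62 was -0.56, and that of all genes lay between -0.04 and 0.04 in each of the 27 comparisons. The pluripotency, 2-cell and trophectoderm markers moved with these lists too, as given above, and their part was not tested. All 6 genes of purine synthesis fell, from Pfas (-2.06 ± 0.1) to Atic (-1.19 ± 0.07), as did all 3 of serine synthesis: Psat1 (-2.05 ± 0.09, adjusted p = 3.3e-21), Phgdh (-1.68 ± 0.13) and Psph (-1.57 ± 0.15). In the folate cycle 7 of 19 fell and 2 rose. Cbs, which joins homocysteine with serine, fell from 94.2 to 9.42 CPM (-3.32 ± 0.12, adjusted p = 7.7e-23), and Pipox, which breaks down sarcosine and pipecolate, from 47.1 to 3.31 CPM (-3.83 ± 0.17, adjusted p = 2.1e-20). Folr1, a folate receptor, rose from 18.1 to 84.9 CPM (2.23 ± 0.15, adjusted p = 8.6e-16).

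CHIR alone called fewer of them: 5 rose and 8 fell, against 11.7% and 6.99% of all genes. Cbs fell (-2.05 ± 0.12, adjusted p = 9.2e-17) and so did Cth, the next enzyme from cystathionine to cysteine (-2.12 ± 0.12, adjusted p = 1.1e-16). The medians of the purine and serine lists were 0.02 and 0.14. With CD1530 on top of CHIR 7 rose and 8 fell (all genes 9.74% and 6.91%), where endoderm markers summed to 2670 to 2720 CPM against 296 to 300 CPM, a difference whose part was not tested. Mthfd2, a mitochondrial folate enzyme, fell (-1.83 ± 0.09, adjusted p = 3.2e-18), as did Pipox (-3.4 ± 0.18, adjusted p = 8.1e-18) and Psat1 (-1.49 ± 0.09, adjusted p = 8e-17), while Aldh1l1, a cytosolic folate enzyme, rose (3.01 ± 0.19, adjusted p = 8.7e-16).

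In mESC-S1 11 of the 62 fell and 6 rose, against 8.26% and 14.2% of all genes. Cbs (-3.33 ± 0.12, adjusted p = 3.6e-22) and Cth (-3.17 ± 0.13, adjusted p = 5.2e-21) fell, and Mat2a, which makes S-adenosylmethionine, rose (1.58 ± 0.11, adjusted p = 1.8e-14). P25 against EPSCs also had 11 lower and 6 higher (all genes 5.5% and 13.2%), with Cth (-2.15 ± 0.13, adjusted p = 9.7e-17) and Cbs (-1.74 ± 0.12, adjusted p = 2.2e-14) lower and Folr1 higher (2.17 ± 0.15, adjusted p = 7.9e-15). The difference between the mESC and the EPSC response was called higher for 17 and lower for 8 of the 62 (all genes 8.7% and 9.97%). That between P25 and 2 days was called higher for 10 and lower for 3 (all genes 4.76% and 4.54%). In both contrasts the set of libraries differs as well and cannot be told apart.

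In S2 against P25 and P38 5 rose and 9 fell (all genes 5.89% and 11.6%), the latter led by Psat1 (-1.91 ± 0.08, adjusted p = 1.2e-20) and Pipox (-2.38 ± 0.16, adjusted p = 9.6e-15), while Dmgdh, which breaks down dimethylglycine, rose (2.77 ± 0.19, adjusted p = 2e-14). In S3 against S2 2 rose and 3 fell (all genes 1.9% and 3.37%), the latter Mthfd2 (-1.24 ± 0.09, adjusted p = 4.7e-12), Psat1 (-1.13 ± 0.09, adjusted p = 5e-12) and Pipox (-1.99 ± 0.21, adjusted p = 1.2e-08). In S5 against S3 16 rose and 7 fell, against 14.1% and 8.5% of all genes. All 3 serine genes and 7 of 19 folate genes rose, and the purine list had a median of 0.16. Psat1 went from 57.2 to 323 CPM (2.49 ± 0.09, adjusted p = 4.1e-23), Mthfd2 from 22.4 to 122 CPM (2.45 ± 0.1, adjusted p = 8.4e-22) and Pipox from 1.11 to 36.5 CPM (5.04 ± 0.2, adjusted p = 1.4e-21). Dmgdh fell from 43.7 to 1.01 CPM (-5.43 ± 0.27, adjusted p = 5.5e-19).

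**Figure D5:**
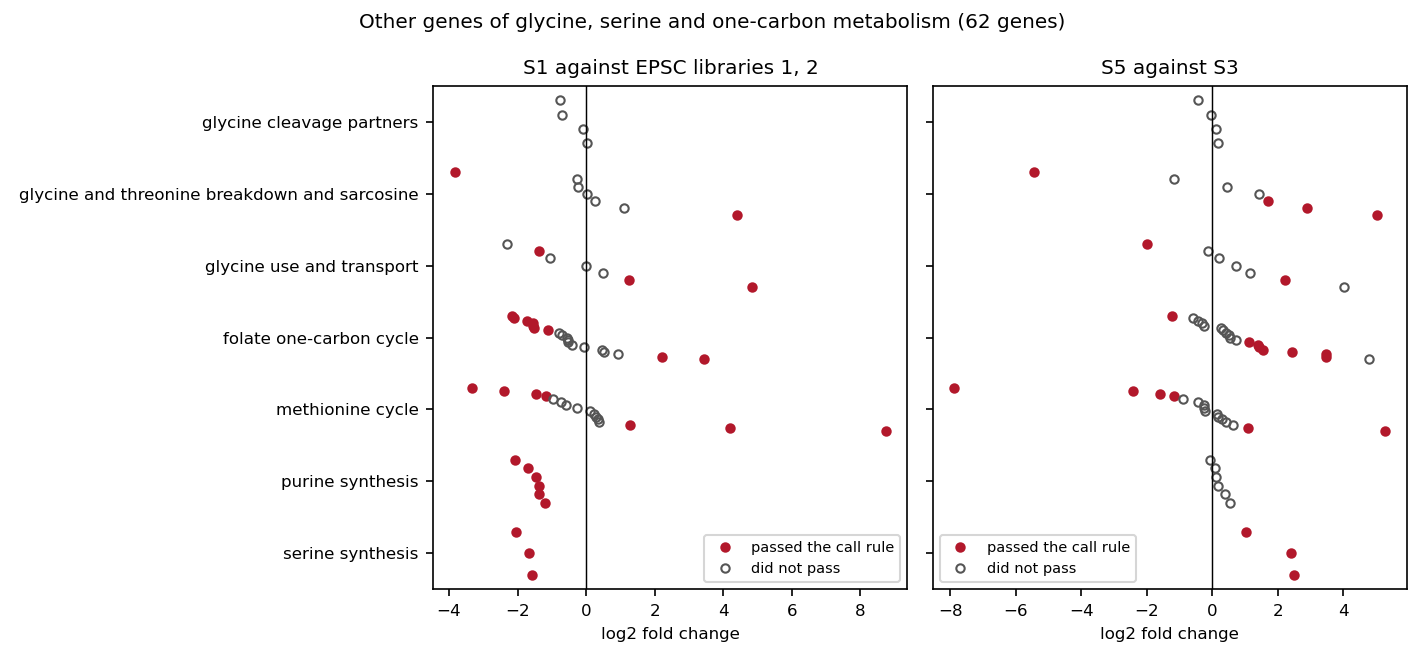
Log2 fold change of the 62 tested list genes in S1 against EPSC libraries 1 and 2 (left) and in S5 against S3 (right), each point a gene, filled where it passed the call rule. All purine and serine genes lie left of 0 in S1, and the 3 serine genes lie right of 0 in S5.

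Omissions moved few of the list genes. Without CD1530 at S3 5 rose and 2 fell (all genes 1.97% and 3.82%), with Mthfd2 (1.27 ± 0.09, adjusted p = 1.3e-12) and Psat1 (1.1 ± 0.09, adjusted p = 3.3e-12) higher beside Tdh and Gldc. Without S3 library 2 that total of 7 came to 4. Without CHIR at S3 3 rose and 4 fell (all genes 5.04% and 4.11%), again with Mthfd2 (1.53 ± 0.09, adjusted p = 2.2e-15) and Psat1 (1.21 ± 0.09, adjusted p = 7.8e-14) higher. Without 8Br-cAMP at S3 3 rose and 2 fell (all genes 2.83% and 3.8%), with Psat1 higher (1.1 ± 0.09, adjusted p = 2.3e-12). Without FGF4 at S5 4 fell (all genes 2.53%), led by Aldh1l1 (-1.79 ± 0.16, adjusted p = 1.8e-10) and Folr1 (-1.49 ± 0.14, adjusted p = 2.7e-10).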

How the data were processed

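Poly(A) RNA of 52 libraries was sequenced as read pairs. Per the submitters' processing notes, reads were handled with Trimmomatic 0.39, STAR 2.7.10b and featureCounts 2.0.6 on mm10. No annotation, strand setting or treatment of pairs is stated for the counting. For 55291 genes the authors deposited whole-number counts that were not scaled.

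Libraries were grouped by the treatment label, with EPSC libraries 1 and 2 and 3 and 4 as separate groups. Of the genes, 25056 passed filterByExpr (edgeR 4.0.16, R 4.3.3), all 6 described genes among them. One quasi-likelihood model with TMM factors was fitted to all libraries, with 27 contrasts and Benjamini-Hochberg adjustment over all tested genes. Each SE is the size of the log2 fold change over the square root of the F statistic. The script was tested on simulated data. Libraries of a group differed by more than counting noise (chi-square per degree of freedom of 2.41 or more). The genes and lists were chosen with earlier results of these data known. Named genes were the 6, Dld, Shmt2, up to 4 risen and 4 fallen list genes by smallest adjusted p (some are not named), and the most similar patterns among genes with 10 CPM or more in a group. Genes with Gm or Rik names were left out of that ranking of patterns. The remaining purine and serine genes were named after their values were seen. Alternatives were RLE factors, no filter, DESeq2 1.42.0, each set alone, a replicate block, each library left out, pooled EPSC libraries and CPM over plain totals.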

Additional observations from a re-analysis of the deposited data

Results flagged for a closer look

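The response to 2 days of totipotency medium differed between mESCs and EPSCs, by a test of the difference itself, for 25 of the 62 list genes (17 higher and 8 lower, against 8.7% and 9.97% of all genes). For the 8 named by smallest adjusted p, the values are the mESC log2 response minus the EPSC log2 response. Mat2a (2.54), Psat1 (1.57), Atic (1.56) and Mthfd1l (1.44) had higher values in mESCs, and Bhmt (-4.92), Bhmt2 (-3.19), Dmgdh (-2.86) and Folr1 (-1.52) lower ones. The line, the starting medium and the set of libraries differ along with the cell type and cannot be told apart.

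The response after 25 passages differed from that after 2 days for 13 of the 62 list genes (10 higher and 3 lower, against 4.76% and 4.54% of all genes), each response against its own EPSC libraries. The 7 named by smallest adjusted p follow. Pipox (2.9), Psat1 (1.6), Mthfd2 (1.43) and Mthfd1l (1.31) had higher values at P25, and Gatm (-1.94), Dmgdh (-1.47) and Bhmt2 (-1.4) lower ones. Time in the medium and the set of libraries cannot be told apart.

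Without Birabresib, Gcat was below both full-medium libraries at S2 (log2 fold change -0.28 ± 0.11 SE) and above both at S3 (0.26 ± 0.11). The difference between the stages was not tested, and neither value passed the call rule.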

How the results depend on the processing

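No log2 fold change of the 6 genes or of a named list gene that passed the call rule changed direction under any alternative that gave a value. The number of the 6 called stayed within 1.5 times its main value in 256 of 261 repeats and the number of list genes called in 239 of 259. Single log2 fold changes of the 6 moved beyond their spread in 60 of 1554 repeats, called list genes lost their call in 57 of 1236, and levels moved beyond 1 SD in 75 of 156 group means under plain totals. With all 4 EPSC libraries as reference, 0 of the 6 were called in mESCs against EPSCs instead of 3. With no low-count filter, 0 instead of 1 were called without CHIR at S2. With each set alone, list genes called numbered 1 instead of 2 without Birabresib at S3, 4 instead of 2 without XAV939 at S5 (also 4 with DESeq2) and 1 instead of 6 in S1 against the sum of additions.

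With each library left out in turn, the 6 genes called ranged from 0 to 1 without CHIR at S2 and without 8Br-cAMP at S3. List genes called ranged from 0 to 3 with Elvitegravir, 1 to 3 without 8Br-cAMP at S2, 0 to 2 without Birabresib and 1 to 2 without CD1530 at S2. At S3 they ranged from 1 to 4 without Birabresib and 4 to 7 without CD1530. At S5 they ranged from 1 to 2 without Activin A, 0 to 2 without BMP4 and 1 to 5 without XAV939, and from 1 to 14 in S1 against the sum of additions, where CHIR libraries 1 and 2 and PD0325901 library 1 moved it. The cause was not tested.

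Replicate numbers did not pair the libraries in most comparisons. Over 21 comparisons the correlation of same-numbered deviations ran from -0.03 to 0.43, and 1 was above 0.1. That 1 was PD0325901 with CHIR against CHIR, where same-numbered libraries went together and the main test took no account of it. These 2 groups also had the widest spread between libraries (chi-square per degree of freedom of 99.1 and 121). With the replicate block (EPSC libraries 3 and 4 left out), 6 of the 6 and 30 list genes were called in S1, as without it. Leaving Gcat out, and keeping the trended dispersion of the full fit when a library was left out, were chosen after seeing the data. Without Gcat, 2 of the 5 others were called in mESCs against EPSCs.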
